A study of Homo sapiens with 46 samples.

Results

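The genes described here encode the proteins of the human cytosolic ribosome. They were taken by symbol: every gene named RPL or RPS followed by a number, with an optional A, X or L suffix, plus RPSA, RPLP0, RPLP1 and RPLP2, and without pseudogenes. This gave 84 of 61228 genes in the HCT116 table and 84 of 30160 genes in the HEK293 table. Of these, 81 passed the filter on low counts in both HCT116 fits and 83 in HEK293. RPL39L, RPL3L and RPL10L did not pass in HCT116, and RPL10L did not pass in HEK293.

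RNA was sequenced from 46 libraries of human cell lines in which Ku, the heterodimer of Ku70 (XRCC6) and Ku80 (XRCC5), was removed in different ways. HCT116 is a colorectal carcinoma line, and clones 1, 7 and 9 carried Ku80-AID, an auxin-inducible degron that is degraded after doxycycline and indole-3-acetic acid (IAA, 100 μM). IAA, always with doxycycline (0.5 μg/mL), was given for 1, 2, 4 and 6 days. It was also combined with an inhibitor of CDK4/6 (CDKi) for 2 and 4 days. The reference libraries had DMSO for 1 or 2 days, or CDKi alone for 2 and 4 days. The 4-day and 6-day IAA libraries have no DMSO library of their own day, so they were set against DMSO at 2 days. Degron clones 1, 13 and 15 in addition lacked MAVS, the adaptor of cytosolic RNA sensing, and were compared at 4 days with IAA against DMSO. No reference library of the degron clones had doxycycline, so IAA and doxycycline cannot be told apart in any comparison of IAA with a reference. HCT116 Ku86flox/- cells were treated for 4 days with 4OHT (50 nM), which activates CreERT2, or with ethanol, with or without Cre. HEK293, an embryonic kidney line, is represented by clones Sa11, SB and TI, whose Ku70 depends on doxycycline. They were sampled 8 days after doxycycline was withdrawn and with doxycycline. Groups hold 2 libraries (1 day, CDKi at 2 days, Ku86flox/-) or 3 libraries (all others). The HCT116 libraries were poly-A enriched and the HEK293 libraries ribosome-depleted, so levels were not compared between the lines.

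Library totals, the sums of estimated counts, rounded to 4 digits, ran from 9528000 to 45750000 in the degron set, from 13050000 to 17610000 in Ku86flox/- and from 19570000 to 28480000 in HEK293. XRCC5 was at 24.8 and 30.8 counts-per-million (CPM) in 4OHT-treated Cre cells and at 254 and 258 CPM in ethanol-treated Cre cells. XRCC6 was at 338 to 605 CPM without doxycycline and at 2267 to 3527 CPM with doxycycline in HEK293. The degron acts on the protein, so the Ku80 mRNA is no check of it. MAVS mRNA was at 108 to 184 CPM in the MAVS-knockout libraries and at 261 to 459 CPM in the other degron libraries. Of 10 colon epithelium markers, 7 passed the filter on low counts in both HCT116 fits, and 7 also did so in HEK293. By this measure the list does not separate the lines. EPCAM, KRT8, KRT18 and KRT19 were found in the HCT116 libraries, whereas CDX1 was at 0 in all groups of HCT116. In HEK293, LIN28B averaged 150 to 184 CPM by group. It belongs to 8 markers of the embryonic kidney line, of which 7 passed the filter in HEK293 and 5 in the degron fit.

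The cytosolic ribosome is built from a small subunit, whose proteins carry the prefix RPS, and a large subunit, whose proteins carry the prefix RPL. Their mRNAs are among the most abundant in dividing cells and typically begin with a cytosine followed by a run of pyrimidines, the 5′ terminal oligopyrimidine (5′TOP) motif, through which mTOR signalling and LARP1 control their translation and stability. Several proteins have paralogs named with L, such as RPS27L, a known p53 target, and RPL22L1. Free RPL5 and RPL11, bound to 5S rRNA, can inhibit MDM2 and so stabilise p53.

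The start of the mRNA is shown for members that the results turn on, in a window of 30 bases that begins 10 bases before the annotated start (RefSeq, GRCh38.p14). Capitals mark the nearest run of a C followed by at least 4 pyrimidines within 10 bases of the start, where there is one. The windows lie at chr11:119018324-119018353 on the minus strand (RPS25), chr12:56116623-56116652 on the plus strand (RPL41), chr1:153990752-153990781 on the plus strand (RPS27), chr3:39406710-39406739 on the plus strand (RPSA), chr6:35468391-35468420 on the plus strand (RPL10A), chr11:8682782-8682811 on the plus strand (RPL27A), chr3:170870176-170870205 on the minus strand (RPL22L1) and chr15:63157458-63157487 on the minus strand (RPS27L).
RPS25: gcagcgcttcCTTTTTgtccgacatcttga
RPL41: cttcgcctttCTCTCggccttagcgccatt
RPS27: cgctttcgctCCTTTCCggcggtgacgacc
RPSA: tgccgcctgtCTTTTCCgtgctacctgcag
RPL10A: aagacatgctagtCTCTTTTCCggttagcg
RPL27A: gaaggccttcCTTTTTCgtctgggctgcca
RPL22L1: ccgtagcttcCTCTCTgctctcgcggccga
RPS27L: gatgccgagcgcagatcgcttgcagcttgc

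RPS25, RPL41, RPS27, RPSA, RPL27A and the paralog RPL22L1 begin with the run itself, whereas in RPL10A the run starts 3 bases further in, and RPS27L has none in this window. Of the 67 members with a RefSeq promoter entry, 43 (64.2%) began with such a run on the transcribed strand, against 729 of 15843 protein-coding genes (4.6%). With the run allowed within 10 bases of the start, the counts were 56 members (83.6%) and 5362 genes (33.8%). A match describes letters at an annotated start and is not a mapped transcription start of these cells.

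Levels per transcript length are given as transcripts-per-million (TPM). In HCT116, 78 of 84 members averaged over 400 TPM, and 77 were among the 200 genes with the highest TPM. RPL41, a very short protein of the large subunit, had the highest mean of 3824 TPM (2123 to 7903 over 40 libraries), followed by RPL4 with a mean of 3766 TPM (2630 to 4650), and these ranges overlap. At the other end stood the paralogs RPL7L1 (122 TPM), RPL26L1 (78.0 TPM), RPL39L (0.239 TPM), RPL3L (0.0491 TPM) and RPL10L (0.00645 TPM). RPL3L and RPL10L are known from muscle and testis. In HEK293 the highest mean was that of RPL26, at 10940 TPM (10230 to 12490 over 6 libraries). RPS9, a protein of the small subunit, averaged 56.0 TPM in HEK293 (35.9 to 90.3), which is low for a core protein, and its values there are uncertain. Counts assigned to 1587 ribosomal protein pseudogenes came to 0.818 to 1.39 per 100 member counts in HCT116 and to 5.65 to 7.51 in HEK293. Reads of near-identical copies could have been split between them, which was not tested.

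The summed share of all counts taken by the members differed between sets of libraries. It was 5.98 to 8.41% in the 1-day libraries and the 2-day CDKi libraries, 3.66 to 4.99% in the other degron libraries with MAVS, 5.01 to 7.02% in MAVS-knockout clones, 6.21 to 7.41% in Ku86flox/- and 6.20 to 7.48% in HEK293. The libraries of 1 day and of CDKi for 2 days also stood apart in other genes: LIN28B averaged 4.44 to 5.66 CPM by group there and at most 0.458 CPM in the other degron groups. The test of the difference without MAVS is the comparison below that sets libraries of 2 of these sets against each other. At 2 days the share was 3.85 ± 0.115% with IAA and 4.49 ± 0.187% with DMSO (SD, n = 3 each), with no overlap of the groups. In the time series it was 4.49 ± 0.187% with DMSO at 2 days, then 3.85 ± 0.115%, 3.88 ± 0.294% and 4.65 ± 0.146% after 2, 4 and 6 days of IAA. As a share of TPM it was 13.4 ± 1.07% after 6 days of IAA and 13.8 ± 0.462% with DMSO at 2 days, so the 6-day share is above that of DMSO in counts and below it in TPM, in both cases by less than the summed spread.

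**Figure D1:**
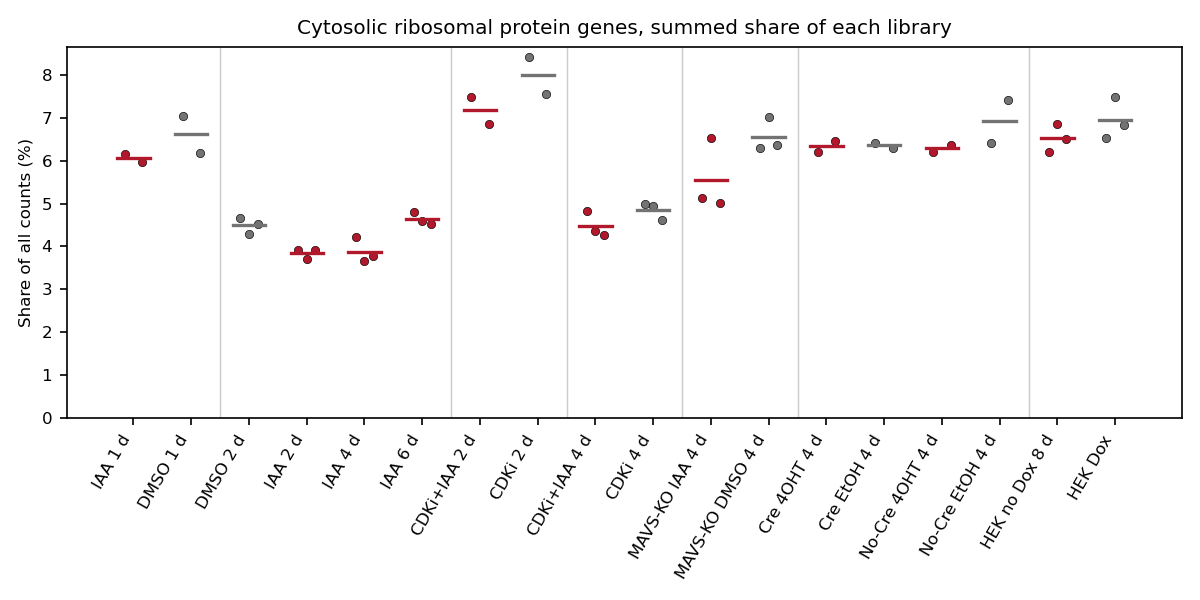
Summed share of all counts (%, vertical axis) taken by the ribosomal protein genes in each of the 46 libraries; points are libraries, bars are group means, grey marks reference groups and red marks treated groups. In the degron series the share was 3.66 to 4.22% after 2 and 4 days of IAA, and at 4.29 to 4.66% in the 2-day DMSO libraries.

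The first question was what happened to these genes when the Ku80 degron was degraded for 1 or 2 days. At 1 day all 81 tested members had a negative log2 change with IAA relative to DMSO, with a median of -0.21, against 0.01 for all genes tested. The size depended on the scaling. The median log2 ratio of the members' levels was -0.11 on TPM and -0.13 when scaled to library totals without mitochondrial counts. No member passed an adjusted p of 0.05 in edgeR's quasi-likelihood test, in which 0.185% of all 18877 genes were called, 0.117% higher and 0.0689% lower. Of the 81, 6 had an unadjusted p under 0.05, DESeq2 called 1 member lower, and a fit of the 1-day libraries alone called 7, all lower. The shares of all genes at that unadjusted p and in these fits are not given. These counts therefore need not be particular to the members. The 2 IAA libraries lay below both DMSO libraries in 67 members, where 25.7% of all genes did so, and above them in none.

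At 2 days 28 members fell and none rose, where 9.94% of all genes fell and 9.12% rose. The median log2 change was -0.30, against 0.00 for all genes. As a ratio of the members' levels the median was -0.14 on TPM and -0.20 without mitochondrial counts, on the log2 scale. In 67 members all IAA libraries lay below all DMSO libraries and in none above, where 20.1% of all genes lay below and 20.2% above. RPL22L1 was at 41.2, 39.4 and 49.4 CPM with IAA and at 90.1, 85.3 and 87.2 CPM with DMSO in clones 1, 7 and 9. These values did not overlap, with a log2 change of -1.02 ± 0.21 (SE, adjusted p = 0.00108). RPL27A, a large-subunit protein, was at 223, 201 and 239 CPM with IAA and at 434, 397 and 432 CPM with DMSO, a log2 change of -0.93 ± 0.13 (adjusted p = 7.75e-06). Next in size were RPL3 (log2 change -0.62 ± 0.10), a protein near the peptidyl transferase centre, RPL10A (-0.60 ± 0.11), RPL35 (-0.60 ± 0.13), RPS15 (-0.58 ± 0.12), RPS23 (-0.54 ± 0.14) and RPL26L1 (-0.52 ± 0.14). The 4 members with a positive change at 2 days did not pass the test. RPS23 and RPL26L1 were not called without the IAA library of clone 1 (adjusted p = 0.0672 and 0.0625), nor was RPS23 without the DMSO library of clone 9 or RPL26L1 without the IAA library of clone 9. The count was 11 without the IAA library of clone 1, 14 and 17 without those of clones 7 and 9, and 18 and 12 without the DMSO libraries of clones 1 and 9. It was 6 with limma on log2(TPM + 1), 15 with library totals in place of TMM factors and 63 in a fit of these 6 libraries alone. In each of these 3 fits all called members were lower. The share of all genes called is not given for these or other alternative fits, so a changed count need not be particular to the members.

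**Figure D2:**
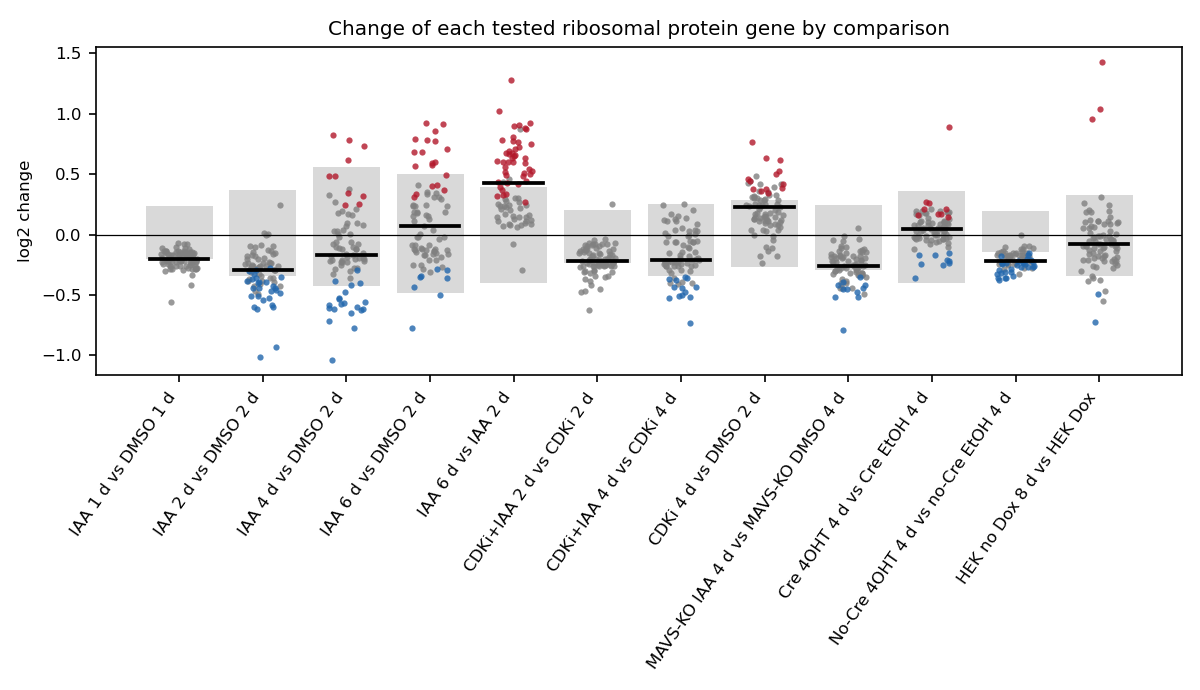
The log2 change (vertical axis) of each tested ribosomal protein gene, 81 in HCT116 and 83 in HEK293, in 12 comparisons, each named with the treated group first. Red points rose and blue points fell at an adjusted p under 0.05, grey points were not called, black bars are the medians of the members and grey boxes span the interquartile range of all genes; the median is -0.30 after 2 days of IAA and 0.42 for 6 against 2 days.

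At 4 and 6 days of IAA, set against DMSO at 2 days, members moved in both directions. At 4 days 10 rose and 20 fell, where 17.9% of all genes rose and 14.9% fell (32.8% in all), and the median of the members was -0.17. At 6 days 19 rose and 8 fell, where 17.8% of all genes rose and 17.5% fell (35.2% in all), and the median was 0.07. Over both directions, the share of members called was near that of all genes on both days. Time in culture and time in IAA cannot be told apart in these comparisons. Mitochondrially encoded counts took 7.79 to 10.5% after 4 days and 7.02 to 8.98% after 6 days of IAA, against 4.17 to 5.47% with DMSO at 2 days, and their part in these results was not tested. The balance of calls moved with the scaling. In limma on log2(TPM + 1) 4 members rose and 34 fell at 4 days, and 12 rose and 21 fell at 6 days with a median of -0.13. With library totals 6 rose and 25 fell at 4 days.

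RPS25, a small-subunit protein used in initiation at some viral internal ribosome entry sites, was at 314, 312 and 304 CPM with DMSO at 2 days in clones 1, 7 and 9. After IAA it was at 294, 262 and 309 CPM at 2 days, 615, 591 and 438 CPM at 4 days, and 589, 626 and 540 CPM at 6 days. All 4-day and 6-day values lay above the DMSO values. Its log2 change was 0.82 ± 0.15 at 4 days (adjusted p = 1.11e-04) and 0.92 ± 0.15 at 6 days (adjusted p = 2.90e-05). RPL41 was at 467, 414 and 326 CPM with DMSO at 2 days, and at 792, 649 and 638 CPM after 4 days and 695, 744 and 647 CPM after 6 days of IAA. Its log2 change was 0.78 ± 0.15 at 4 days and 0.79 ± 0.15 at 6 days. RPL23A, a large-subunit protein at the exit of the nascent chain, changed by 0.74 ± 0.13 and 0.78 ± 0.13 on the log2 scale at 4 and 6 days.

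Among the other members that rose at 4 days were RPS27L (log2 change 0.62 ± 0.14), RPL36A (0.49 ± 0.14), RPS27 (0.49 ± 0.18) and RPS29 (0.32 ± 0.11). The call on RPS27 at 4 days rested on clone 1, at 388 CPM against 227 and 215 CPM in clones 7 and 9, and without that library the adjusted p was 0.429. Without 1 of the DMSO libraries it was 0.0501 to 0.094. The call on RPS29 was lost without any 1 of 4 libraries, with an adjusted p of up to 0.158 (without DMSO clone 7), and that on RPL36A without IAA clone 7 (0.0543). RPS27 rose at 6 days by 0.92 ± 0.18 on the log2 scale, and RPS12 by 0.86 ± 0.19. RPLP1, of the ribosomal stalk, was at 482, 160 and 176 CPM at 4 days and at 255, 530 and 278 CPM at 6 days of IAA in clones 1, 7 and 9, so that 1 clone stood apart on each day, and it passed the test on neither. The share of mitochondrially encoded counts was 10.5% in the 4-day library of clone 1, against 7.79 and 8.66% in the other two.

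RPSA, the laminin receptor protein of the small subunit, had the largest decrease at 4 days among the members called. It was at 1599, 1508 and 1611 CPM with DMSO at 2 days in clones 1, 7 and 9. After IAA it was at 1147, 1167 and 1061 CPM at 2 days, 634, 824 and 835 CPM at 4 days, and 1083, 690 and 984 CPM at 6 days. No IAA value reached the lowest DMSO value. At 2 days the log2 change was -0.48 ± 0.14, with adjusted p values of 0.0658 to 0.122 without DMSO clone 9 or any 1 IAA library. It was -1.04 ± 0.14 at 4 days (adjusted p = 2.60e-06) and -0.78 ± 0.14 at 6 days. RPL10A fell by 0.77 ± 0.11 on the log2 scale at 4 days and by 0.34 ± 0.11 at 6 days, where its call was lost without DMSO clone 9 (adjusted p = 0.109) or IAA clone 7 or 9. RPS15 fell by 0.72 ± 0.12 and 0.50 ± 0.12 on these days. RPL35, RPL27A, RPS3, RPS2 and RPS7 also fell at 4 days, by 0.60 to 0.65 on the log2 scale.

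Between 2 and 6 days of IAA 45 members rose and none fell, where 12.8% of all genes rose and 11.8% fell, and the median log2 change was 0.42. RPS12 rose by 1.28 ± 0.19, RPS25 by 1.02 ± 0.15, RPL22L1 by 0.89 ± 0.21 and RPL27A by 0.66 ± 0.13 on this scale. With limma on log2(TPM + 1) 13 members rose and 2 fell, and the median was 0.05, where the median of all genes moved to -0.15.

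**Figure D3:**
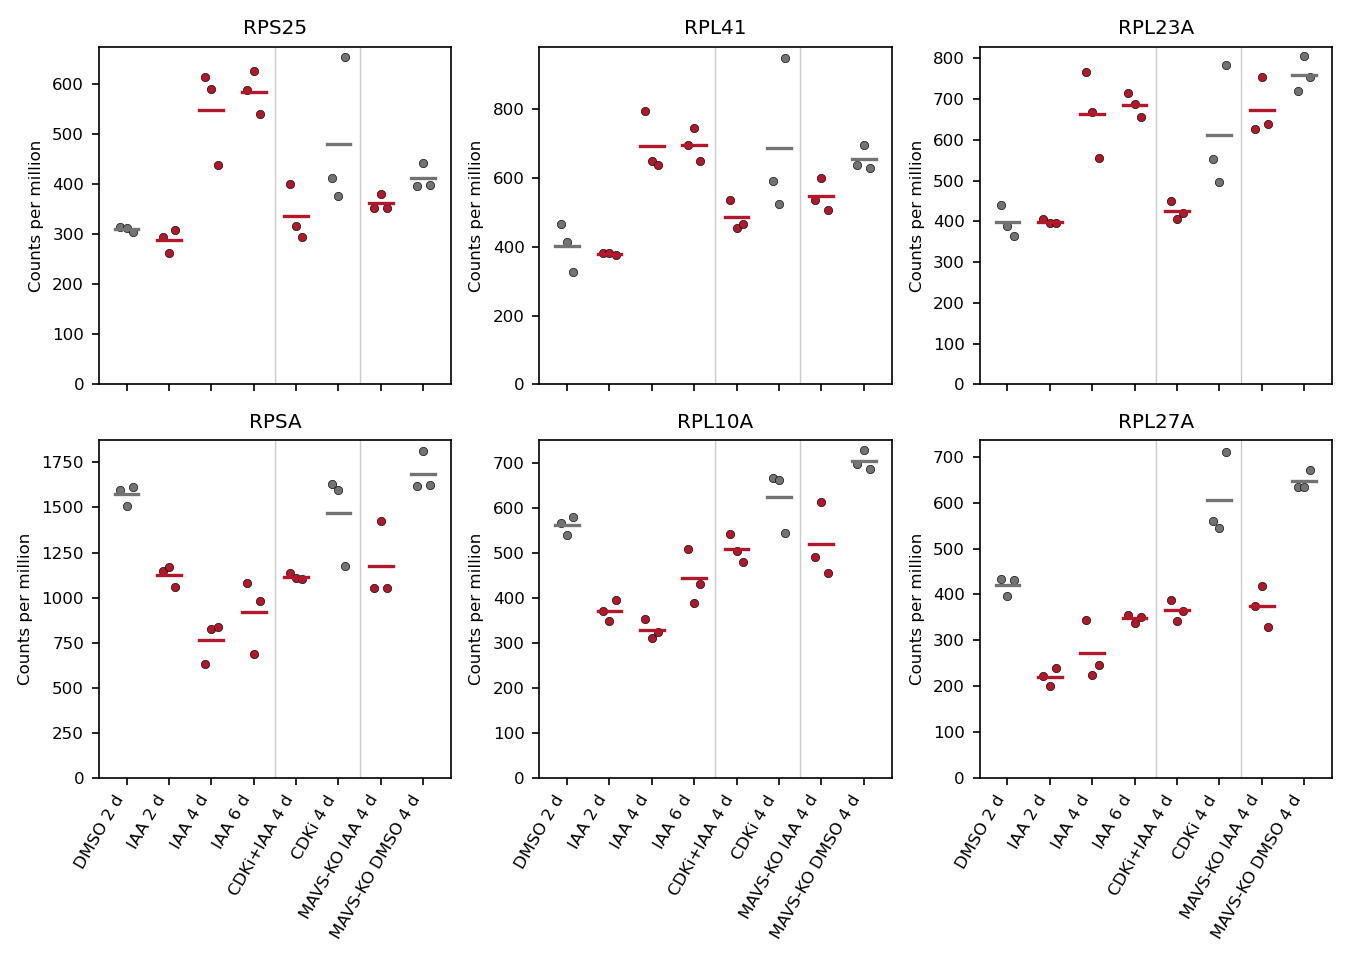
CPM (vertical axes) of 6 ribosomal protein genes in each library of the degron clones; points are libraries, bars are group means, grey marks reference groups and red marks IAA groups. RPS25, RPL41 and RPL23A are higher after 4 and 6 days of IAA than with DMSO at 2 days, but lower in the 4-day CDKi libraries with IAA than with CDKi alone, and RPL27A is lower with IAA in each set.

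The 4-day libraries with CDKi and those without MAVS each have a reference of the same day. With CDKi and IAA for 4 days 13 members fell and none rose relative to CDKi alone, where 5.1% of all genes fell and 6.12% rose, and the median log2 change was -0.21. On TPM the median ratio of the members' levels was 0.025 on the log2 scale, so its sign depends on the scaling. A fit with the clone as a block called 20, all lower. In MAVS-knockout clones 11 members fell and none rose with IAA relative to DMSO, where 3.16% of all genes fell and 4.73% rose (7.89% in all), with a median of -0.26, and the clone-blocked fit called 27, all lower. With CDKi and IAA for 2 days none passed the test, where 0.413% of all genes were called, 0.297% higher and 0.117% lower, although 80 of 81 changes were negative with a median of -0.21. On TPM the median log2 ratio of the members' levels was -0.11 in that comparison. There 9 members had an unadjusted p under 0.05, DESeq2 called 4 and the clone-blocked fit 2, all lower. The shares of all genes for these counts are not given, so they need not be particular to the members.

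RPL27A was lower with IAA in both sets. It was at 389, 343 and 365 CPM with CDKi and IAA and at 561, 545 and 710 CPM with CDKi alone at 4 days in clones 1, 7 and 9, a log2 change of -0.73 ± 0.13 (adjusted p = 2.76e-04). In MAVS-knockout clones 1, 13 and 15 it was at 376, 420 and 328 CPM with IAA and at 634, 635 and 671 CPM with DMSO, a log2 change of -0.79 ± 0.13 (adjusted p = 2.24e-04). Neither pair of groups overlapped. RPL5, of the 5S particle, fell by 0.51 ± 0.09 with CDKi and by 0.42 ± 0.09 without MAVS on the log2 scale, and RPL3 by 0.38 ± 0.10 and 0.52 ± 0.10. RPL11, the partner of RPL5, had log2 changes of -0.23 ± 0.13 and -0.35 ± 0.13 and did not pass the test in either. RPL12, RPS3, RPS24 and RPL22 were called lower in both comparisons. RPSA fell by 0.52 ± 0.14 in MAVS-knockout clones, with an adjusted p of up to 0.197 when 1 library (IAA clone 15) was left out. RPL3, RPL12, RPS3 and RPL22 lost the call in 1 or more of the fits without 1 library, with adjusted p values of up to 0.151 with CDKi (RPS3, without CDKi and IAA clone 9) and 0.26 in MAVS-knockout clones (RPL22, without IAA clone 15).

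RPS25 was at 400, 317 and 294 CPM with CDKi and IAA and at 412, 376 and 655 CPM with CDKi alone at 4 days in clones 1, 7 and 9. Its log2 change of -0.51 ± 0.15 (adjusted p = 0.0254) became an adjusted p of 0.237 without the CDKi library of clone 9, in which mitochondrial counts took 16.1%, the highest share of all libraries. RPL41 (-0.50 ± 0.15) and RPL23A (-0.52 ± 0.13) had adjusted p values of 0.326 and 0.0665 without it. Leaving out the library of clone 7 or 9 with CDKi and IAA gave RPS25 an adjusted p of 0.102 or 0.127, and RPL41 one of 0.126 or 0.102. In MAVS-knockout clones RPS25 was at 353, 380 and 353 CPM with IAA and at 397, 443 and 398 CPM with DMSO, and its log2 change of -0.19 ± 0.15 did not pass the test. CDKi alone for 4 days was also set against DMSO at 2 days: 13 members rose and none fell, where 3.85% of all genes rose and 3.84% fell (7.69% in all), with RPL41 at 0.77 ± 0.15, RPS25 at 0.63 ± 0.15 and RPL23A at 0.62 ± 0.13 on the log2 scale. Mitochondrially encoded counts took 8.67 to 16.1% with CDKi at 4 days, against 4.17 to 5.47% with DMSO at 2 days, and their part in this result was not tested. That comparison shares its DMSO libraries with the 4-day and 6-day IAA comparisons, and day and CDKi cannot be told apart in it. With limma on log2(TPM + 1) 1 member rose and 3 fell there, with the median of all genes at -0.14, and leaving out the DMSO library of clone 7 or 9 or the CDKi library of clone 1 left 4, 7 and 6 members that rose. The call on RPS25 was lost without the CDKi library of clone 9 (adjusted p = 0.0724).

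Counts called depended on single libraries in these sets. With CDKi and IAA at 4 days 5 members were called without the CDKi and IAA library of clone 7 or of clone 9, and 8 without the CDKi library of clone 7. In MAVS-knockout clones the count was 43 without the IAA library of clone 13, where the members' share was 6.53%, against 5.12 and 5.01% in the other IAA libraries, and it was 7 and 4 without those of clones 1 and 15. A fit of the MAVS-knockout libraries alone called 1. With limma on log2(TPM + 1) 1 member rose and 1 fell for CDKi with IAA, and 5 fell with library totals.

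The difference between responses was tested as an interaction, with the 4-day IAA response taken against DMSO at 2 days. With CDKi 9 members differed, 4 higher and 5 lower, where 4.69% of all genes did (2.19% higher and 2.5% lower), and the clone-blocked fit called 20. RPS25 (-1.34 ± 0.21), RPL41 (-1.28 ± 0.22) and RPL23A (-1.26 ± 0.18) had the largest differences in log2 change, and RPS15 (0.81 ± 0.17) the largest in the other direction. Without MAVS 7 members differed, all lower, where 4.84% of all genes differed (2.45% higher and 2.39% lower), and the clone-blocked fit called 11. They were RPL41, RPS25, RPL23A, RPL36A, RPL31, RPS29 and RPS24. RPL36A, RPS29 and RPS24 lost the call without 7, 3 and 9 of the libraries in turn, and RPS15 with CDKi without CDKi and IAA clone 1 (adjusted p = 0.0523). On TPM, limma found 18 members higher and 2 lower for CDKi, and 3 higher and 3 lower without MAVS. The medians of all genes were then 0.13 and 0.10. With library totals 10 were higher and 4 lower for CDKi. The MAVS count was 4 without the DMSO library of clone 7 or the MAVS-knockout DMSO library of clone 13, and 12 without the MAVS-knockout IAA library of clone 13. The CDKi count was 5 without the DMSO library of clone 7 or 9. The day of the reference differs between the responses compared, so day and treatment cannot be told apart here.

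**Figure D4:**
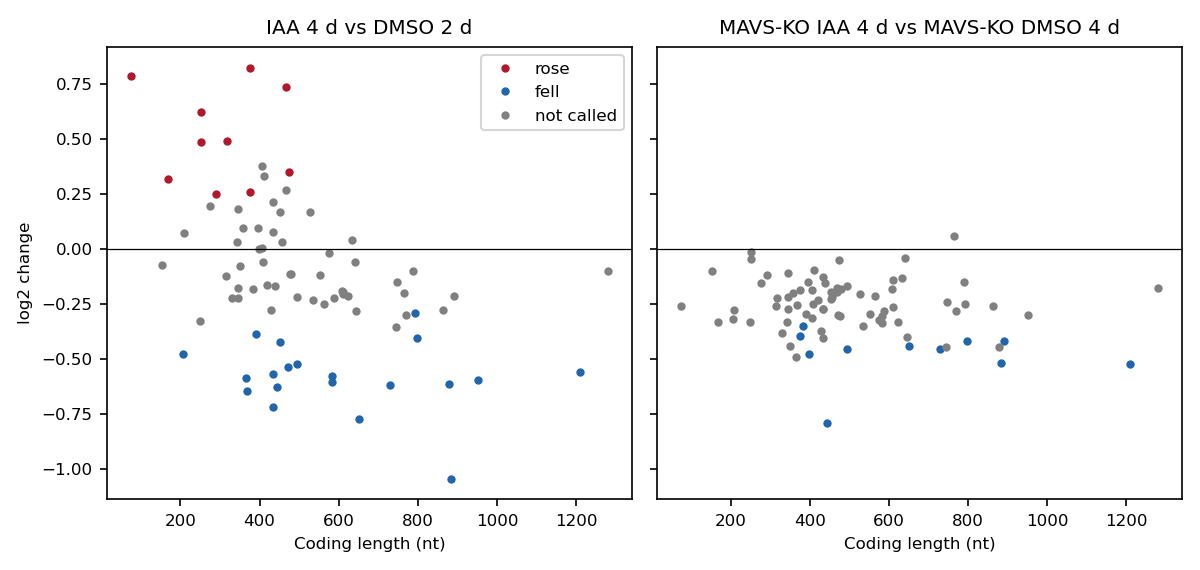
The log2 change (vertical axes) against coding length in nucleotides (horizontal axes) for the 81 tested members, after 4 days of IAA against DMSO at 2 days and in MAVS-knockout clones at 4 days; red points rose, blue points fell and grey points were not called. Short members lie higher in the first comparison, where the rank correlation is -0.46, than in the second, where it is -0.17.

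After 4 days of IAA the shorter members had the higher changes, and this relation differed in sign and size between comparisons. The Spearman correlation of coding length (GENCODE 29, principal isoform) with the log2 change over 81 members was -0.46 for 4 days of IAA, -0.38 for 6 days and -0.17 for MAVS-knockout clones. It was -0.18 for CDKi and IAA at 4 days against CDKi alone, -0.41 for 4OHT in Cre cells and 0.41 for 4OHT without Cre. With the length of the whole mRNA it was -0.22 for 4 days of IAA. The members share libraries and are not independent, so no p is given. At 4 days the 27 members with a coding length under 400 nucleotides had a median of 0.03 and the 23 members with 600 or more a median of -0.28. The 1529 other genes under 600 nucleotides had a median of -0.03. Their cut-off is wider than that of the short members, so these sets are not matched in length. Members with the pyrimidine run at the start had a median of -0.17 at 4 days (n = 43), against -0.20 in those without it (n = 23).

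Excision of Ku86 by Cre left the summed share of the members at 6.33 ± 0.174% with 4OHT and 6.36 ± 0.0849% with ethanol (SD, n = 2 each). In these cells 9 members rose and 9 fell, where 26.9% of all genes rose and 27.2% fell (54% in all), so the share of members called was below that of all genes. Mitochondrially encoded counts took 9.82 and 9.90% with 4OHT and 7.36 and 7.38% with ethanol, and their part in these results was not tested. RPS27L, the p53-target paralog, was at 127 and 145 CPM with 4OHT and at 71.5 and 75.1 CPM with ethanol, without overlap. Its log2 change of 0.89 ± 0.09 (adjusted p = 2.80e-06) was the largest of the members. RPSA was at 1245 and 1297 CPM with 4OHT and at 1627 CPM in both ethanol libraries, a log2 change of -0.36 ± 0.06 (adjusted p = 1.88e-04). The other called changes lay between -0.25 and 0.27 on the log2 scale, including RPL13A (0.27 ± 0.07) and RPS20 (0.26 ± 0.09) among those that rose and RPL12 (-0.25 ± 0.06), RPS2 (-0.24 ± 0.07) and RPS15 (-0.24 ± 0.06) among those that fell. These 5 lost the call without 2 or 3 of the 4 libraries, RPS20 with an adjusted p of 0.24 without 4OHT replicate 2. RPL27A did not pass the test, with a log2 change of 0.09 ± 0.06. Each library mattered: the count was 7 to 10 when 1 of the 4 was left out, and 36 when the Cre libraries were fitted alone. With library totals 5 rose and 11 fell, and with limma on log2(TPM + 1) 1 rose and 14 fell.

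Without Cre, 4OHT itself went with lower values: 29 members fell and none rose relative to ethanol, where 7.19% of all genes fell and 7.01% rose, with a median log2 change of -0.22. Both 4OHT libraries lay below both ethanol libraries in 72 members, where 26.9% of all genes did. The largest decreases were RPL35A (-0.38 ± 0.08), RPS21 (-0.36 ± 0.10), RPS28 (-0.36 ± 0.10) and RPLP1 (-0.36 ± 0.07). RPS21 and RPS28 were lost without any library other than ethanol replicate 1, RPL35A without 4OHT replicate 2 (adjusted p = 0.111) and RPLP1 without 4OHT replicate 1 (0.0881). The ethanol libraries differed from each other, with a member share of 7.41% in replicate 2 and 6.42% in replicate 1. The count was 78 without ethanol replicate 1, 10 without ethanol replicate 2, 2 without 4OHT replicate 1 and 8 without 4OHT replicate 2. It was 0 with limma on log2(TPM + 1), 11 with library totals, 14 in a fit of these 4 libraries alone and 70 with no filter on counts.

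Relative to the no-Cre cells, 38 members had a higher response to 4OHT in Cre cells and none a lower one, where 19.6% of all genes were higher and 21.7% lower (41.3% in all). RPS27L led with a difference of 1.095 ± 0.13 on the log2 scale (adjusted p = 2.31e-05), while the next, RPS21, differed by 0.56 ± 0.14. The count ran from 14 to 68 when 1 library was left out, with the lowest without 4OHT replicate 2 of the Cre cells and the highest without ethanol replicate 1 of the no-Cre cells. With limma on log2(TPM + 1) 1 member was higher and 3 were lower, with the median of all genes at -0.18. With library totals 19 were higher and 1 was lower.

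In HEK293 cells 8 days after doxycycline withdrawal 3 members rose and 2 fell, where 11.1% of all genes rose and 10.9% fell (22% in all). All reference libraries had doxycycline and all others lacked it, with no clone whose Ku70 is independent of it. Loss of Ku70 and removal of doxycycline therefore cannot be told apart here. The day of the libraries with doxycycline is not given, so time cannot be told apart either. RPL27A was at 472, 437 and 520 CPM without doxycycline and at 833, 687 and 839 CPM with it in clones Sa11, SB and TI, a log2 change of -0.72 ± 0.14 (adjusted p = 0.00855). RPL3 fell by 0.49 ± 0.14, a call lost in 5 of the 6 fits without 1 library. RPL22L1 was at 53.7, 62.5 and 64.5 CPM without doxycycline and at 25.8, 39.9 and 27.3 CPM with it, a log2 change of 0.96 ± 0.18 (adjusted p = 0.00675), and the groups did not overlap. RPS9 rose by 1.04 ± 0.16 from the low level noted above, and RPL3L, at 1.57, 3.22 and 2.69 CPM without doxycycline and 1.06, 0.953 and 0.761 CPM with it, by 1.43 ± 0.38, a call lost in 4 of them. The clone-blocked fit called 15 members, 4 higher and 11 lower, DESeq2 called 3 higher and 7 lower, and library totals gave 3 higher and 5 lower. The count was 2 or 3 without any 1 library other than the no-doxycycline library of SB, without which it was 7. RPL27A had an adjusted p of 0.05903 and 0.05573 without the Sa11 library with or without doxycycline.

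The paralogs did not move as 1 group. RPS27L and its partner RPS27 were both called higher at 4 and 6 days of IAA, but the 4-day call on RPS27 was lost in 4 of 6 fits without 1 library. In 4OHT-treated Cre cells RPS27 had a log2 change of 0.19 ± 0.08 and did not pass the test. RPL22L1 fell at 2 days in the degron clones, while RPL22 fell by 0.33 ± 0.10, a call lost without any library other than DMSO clone 7. In HEK293 RPL22 had a log2 change of -0.21 ± 0.19, which did not pass the test. The difference between a paralog and its partner was not tested. RPL26L1 fell by 0.52 ± 0.14 at 2 days and 0.57 ± 0.14 at 4 days of IAA, and RPL7L1 passed the test in none of the comparisons with DMSO. RPL39L, which is high in testis, was at 0.498 to 0.708 CPM in the 8 libraries of the 1-day and 2-day CDKi groups, at 0 in the other 24 degron libraries, and at 7.66 to 13.3 CPM without and 11.96 to 17.8 CPM with doxycycline in HEK293.

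**Figure D5:**
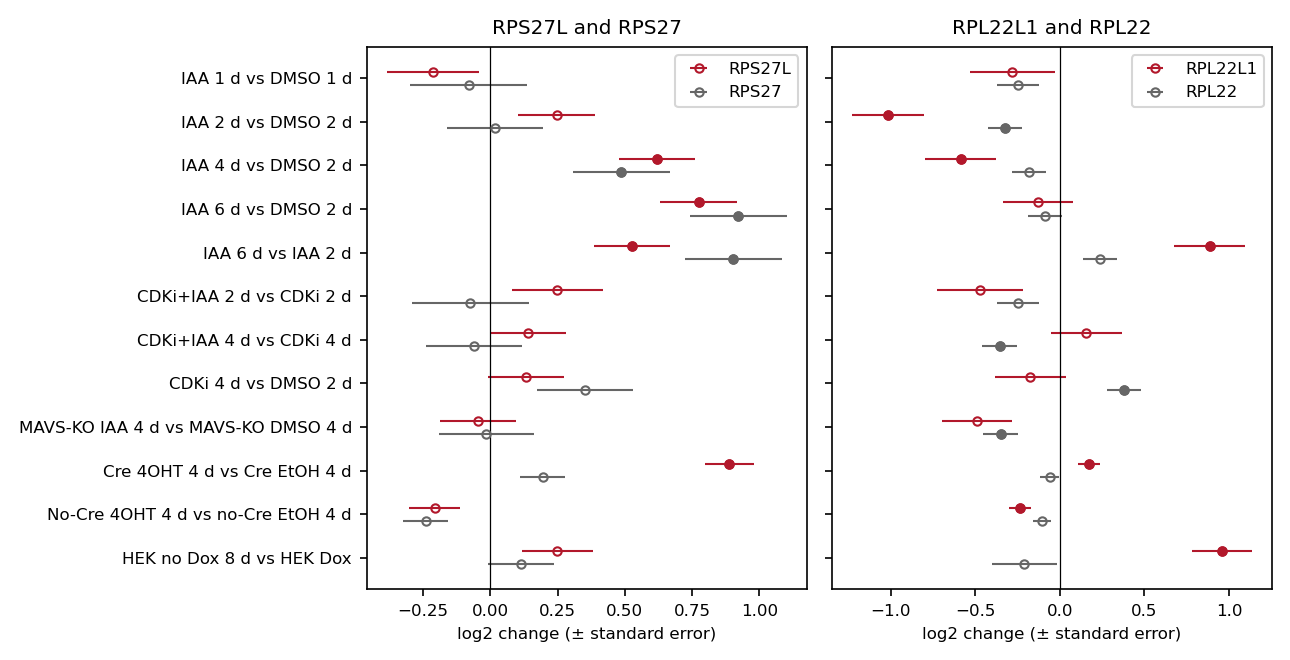
The log2 change with its standard error (horizontal axes) of RPS27L and RPS27 and of RPL22L1 and RPL22 in 12 comparisons, each named with the treated group first; filled points passed an adjusted p of 0.05. RPS27L is at 0.89 and RPS27 at 0.19 in Cre cells with 4OHT, and RPL22L1 is at -1.02 after 2 days of IAA and at 0.96 in HEK293 without doxycycline.

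Other genes of the translation apparatus were examined from lists. Of 26 further TOP mRNAs, 11 fell and none rose at 2 days of IAA, and 14 fell and 1 rose at 4 days, where the list medians were -0.33 and -0.29. Of all genes 9.94% fell and 9.12% rose at 2 days, and 14.9% fell and 17.9% rose at 4 days, and the counts of the lists below at these times stand against the same shares. NPM1, a nucleolar chaperone, fell by 0.96 ± 0.16 at 2 days, and EIF3L, an initiation factor subunit, had a log2 change of -0.71 ± 0.10, whereas TPT1 rose by 0.66 ± 0.12 at 4 days. Of 78 mitochondrial ribosomal protein genes, 36 fell and none rose at 2 days, and 46 fell and 1 rose at 4 days, with medians of -0.39 and -0.49. Of 18 chaperones and importers of ribosomal proteins, 11 fell at 2 days, led by IPO5, an import receptor (-1.01 ± 0.14). All these lists were set against a median of 0.00 for all genes at 2 days and 0.04 at 4 days.

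The 13 snoRNA host transcripts, many of which also carry a TOP motif and are degraded by nonsense-mediated decay, changed in different directions over the IAA series. At 2 days 4 fell and none rose, with a median of -0.31. At 4 days 5 rose and 1 fell, with a median of 0.38, and at 6 days 10 rose and none fell, with a median of 0.74, where 17.8% of all genes rose and 17.5% fell. Against references of the same day the counts were smaller: 2 rose and none fell in MAVS-knockout clones (median 0.11), where 4.73% of all genes rose and 3.16% fell, and 3 rose and none fell with CDKi and IAA at 4 days (median 0.19), where 6.12% rose and 5.1% fell. With 4OHT and no Cre 7 fell and none rose, where 7.19% of all genes fell and 7.01% rose. SNHG32 rose by 2.00 ± 0.21 at 4 days and 2.54 ± 0.21 at 6 days, and ZFAS1 by 1.26 ± 0.21 and 2.28 ± 0.21. In MAVS-knockout clones, with a reference of the same day, SNHG32 rose by 1.41 ± 0.20 and ZFAS1 by 0.87 ± 0.21. Of 13 genes of the 5S particle and p53 surveillance, 2 rose and 4 fell at 4 days of IAA, where 17.9% of all genes rose and 14.9% fell. CDKN1A and MDM2, both p53 targets, rose by 1.23 ± 0.20 and 0.31 ± 0.12 at 4 days of IAA and by 1.74 ± 0.05 and 1.35 ± 0.06 in 4OHT-treated Cre cells. In those Cre cells 8 of the 13 genes rose and 3 fell, where 26.9% of all genes rose and 27.2% fell. Of 24 regulators of mTOR and TOP mRNAs 2 rose and 5 fell at 4 days, against the same shares, and SESN2, a stress-induced inhibitor of mTORC1, rose by 1.26 ± 0.20. Of 9 tested regulators of these genes 2 fell at 2 days, where 9.94% of all genes did, and MYC, an activator of ribosome biogenesis, fell by 1.20 ± 0.24 at 2 days.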

How the data were processed

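The authors deposited estimated counts and TPM per gene for 40 HCT116 and 6 HEK293 libraries. Per the submitters' processing notes, the tools included kallisto 0.50.0 and Salmon 1.10.2 with DESeq2, on GRCh38. In the sources used here it is not given which of them made which table, how strand and multi-mapped reads were handled, or which gene annotation served. The deposited estimated counts were taken as not normalized and rounded to whole numbers, and the TPM were scaled to length and library total by the authors. There were 0 columns without a sample.

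edgeR 4.0.16 in R 4.3.3 was fitted with TMM factors, filterByExpr, quasi-likelihood tests and Benjamini-Hochberg adjustment at 0.05, in 3 fits (32, 8 and 6 libraries; 18877, 16726 and 15549 genes). Standard errors were taken from the log2 change and the F statistic. CPM use TMM-scaled library sizes. Alternatives were DESeq2 1.42.0, RLE factors, no filter on counts, library totals, log2(TPM + 1) in limma 3.58.1, TPM or counts without mitochondrial genes for shares and levels, the compared groups only, a replicate block and leaving out each library. On data simulated for 2 days of IAA, 26 of 50 genes changed 2-fold and 12 of 50 changed 1.5-fold were recovered among 17910 genes. None of 50 changed 1.25-fold was recovered. The changed genes were drawn from all genes tested, at any level, and were far fewer than the genes called at 2 days. The recovery therefore does not give the limit for the members, most of which have high levels. For the Cre comparison the 1.25-fold recovery was 15 of 50.

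Both arms of a comparison hold the same clones, which therefore pair the libraries; same-clone deviations from group means correlated at 0.0563 to 0.186 at 2 days of IAA, 0.098 to 0.355 in MAVS-knockout clones and 0.311 to 0.515 in HEK293. The replicate numbers of Ku86flox/- are 2 per group and do not pair libraries. Clones of 1 line, and replicates not said to be separate cultures, give p-values for the spread between these libraries only. Replicates differed by more than sampling noise (chi-square at least 1.98 per degree of freedom, genes with at least 20 counts). Named members are up to 8 per direction and comparison by size of log2 change among those called, plus paralogs with their partners, the stalk, RPL5, RPL11, RPS6, RPSA and RPS4X; 1 called member that the rule names is not reported here. RPL27A and RPLP1 values by library were chosen after their values were seen. The members and gene lists were chosen with earlier results of these data known. Antisense and overlapping genes cannot be separated where strand was not used in counting. Fewer cells and less RNA per cell cannot be told apart.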

Additional observations from a re-analysis of the deposited data

Results flagged for a closer look

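These members differed in an interaction test of their response. For CDKi and for MAVS the reference day differs between the responses compared, so day and treatment cannot be told apart. The CDKi change of the 4-day IAA response was called in 9 members, the change without MAVS in 7 and the change of the 4OHT response with Cre in 38 (edgeR, adjusted p under 0.05). Of all genes, 4.69%, 4.84% and 41.3% were called in these tests, so the Cre count is not far from the share of all genes. With CDKi the differences in log2 change were -1.336 for RPS25, -1.285 for RPL41, -1.261 for RPL23A, -0.8931 for RPL36A and -0.6354 for RPS29. In the other direction they were 0.8061 for RPS15, 0.7031 for RPL35, 0.6916 for RPS9 and 0.5467 for RPS7. Of the 12 fits without 1 library, RPS7 lost the call in 11, RPS9 in 9, RPL35 in 8, RPS29 in 4 and RPS15 in 1, with adjusted p values of up to 0.178 for RPS7 and 0.223 for RPS9. Without MAVS they were -1.043 for RPL41, -1.011 for RPS25, -0.9113 for RPL23A, -0.7098 for RPL36A, -0.6499 for both RPL31 and RPS29, and -0.4766 for RPS24. There RPS24 lost the call in 9 of 12 such fits, RPL36A in 7 and RPS29 in 3. The largest with Cre were 1.095 for RPS27L, 0.5602 for RPS21, 0.5438 for RPLP1, 0.5021 for RPS20, 0.4891 for RPS12, 0.4837 for RPS9, 0.4806 for RPL34 and 0.4686 for RPS28. Of the 8 fits without 1 library, RPS28 lost the call in 4, RPS9 in 2, and RPS20 and RPL34 in 1 each.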

How the results depend on the processing

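Counts of members called moved beyond 1.5 times as follows. A fit of the compared groups alone gave 7 (1 day of IAA), 63 (2 days), 3 (CDKi and IAA, 2 days), 1 (MAVS-knockout), 3 (MAVS change), 36 (Cre) and 14 (no Cre). DESeq2 gave 1 (1 day), 4 (CDKi and IAA, 2 days), 20 (CDKi and IAA, 4 days), 18 (CDKi change), 27 (MAVS-knockout), 11 (MAVS change) and 10 (HEK293). Library totals gave 15 (2 days), 5 (CDKi and IAA, 4 days), 5 (CDKi, 4 days), 14 (CDKi change), 11 (no Cre), 20 (Cre change) and 8 (HEK293). limma on log2(TPM + 1) gave 6 (2 days), 15 (6 against 2 days), 2 (CDKi and IAA, 4 days), 4 (CDKi, 4 days), 20 (CDKi change), 6 (MAVS-knockout), 0 (no Cre) and 4 (Cre change). No count filter gave 1 (CDKi and IAA, 2 days), 14 (CDKi change) and 70 (no Cre). The replicate block gave 2 (CDKi and IAA, 2 days), 20 (CDKi and IAA, 4 days), 20 (CDKi, 4 days), 20 (CDKi change), 27 (MAVS-knockout), 11 (MAVS change) and 15 (HEK293). In Ku86flox/-, whose numbers do not pair libraries, the replicate block gave 24 (Cre), 43 (no Cre) and 42 (Cre change). These last counts stayed within 1.5 times the main counts. The cause was not tested, and the shares of all genes called in these fits are not given here.

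Leaving out 1 library gave 0 at 1 day and with CDKi and IAA at 2 days, 11 to 23 at 2 days, 22 to 29 at 4 days, 18 to 23 at 6 days, 32 to 46 for 6 against 2 days, 5 to 17 for CDKi and IAA at 4 days, 4 to 15 for CDKi at 4 days, 5 to 9 for the CDKi change, 4 to 43 in MAVS-knockout clones, 4 to 12 for the MAVS change, 7 to 10 with Cre, 2 to 78 without Cre, 14 to 68 for the Cre change and 2 to 7 in HEK293. A group left with 1 library was assumed to vary like the others.

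On TPM the ratio of summed shares was 0.9701 (6 days), 1.08 (6 against 2 days) and 1.003 (CDKi, 4 days; 1.157 without mitochondrial counts). The median log2 ratio of levels on TPM was -0.1057 (1 day), -0.1383 (2 days), -0.3081 (4 days), -0.1162 (6 days), 0.04477 (6 against 2 days), -0.1054 (CDKi and IAA, 2 days), 0.025 (CDKi and IAA, 4 days), -0.02574 (CDKi, 4 days), -0.0232 (Cre) and -0.0912 (no Cre). Without mitochondrial counts it was -0.1263 (1 day), -0.2002 (2 days), -0.1526 (CDKi and IAA, 2 days) and -0.1423 (no Cre). With limma on log2(TPM + 1) the log2 change turned negative for RPL12 (-0.1301), RPL13 (-0.1648), RPL35 (-0.132), RPL5 (-0.04945) and RPS13 (-0.02135) at 6 against 2 days, RPS29 (-0.07066) with CDKi at 4 days, RPL22L1 (-0.02229) with Cre, and RPL32 (-0.001896), RPS28 (-0.06699) and RPS6 (-0.03642) in the Cre change.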
